A study of Rattus norvegicus with 6 samples.

Results

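Lcn2, Serpina3n, Steap4, Cp, Ptx3, Gbp2, Srgn, Cd14, Emp1 and Tgm2, genes used as markers of reactive astrocytes, were followed in cultured rat spinal cord astrocytes by their symbols in the platform annotation. Of the 10 genes 9 had a probe set on the array, 13 probe sets in all, among 31042 probe sets that are not controls; no probe set carried the symbol Ptx3, which is not analysed here. The genes were chosen with their signals by genotype and by replicate letter already known, so those signals are given as a description and support nothing by themselves. All 13 probe sets passed the filter on dim signals, but Serpina3n did so only through its NonTG signals.

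The cultures came from a rat colony carrying a human superoxide dismutase 1 transgene with the G93A substitution, a mutation that causes familial amyotrophic lateral sclerosis. Astrocytes without the transgene (NonTG, 3 arrays) and with it (hSOD1G93A, 3 arrays) were grown to confluence and kept for 24 hours in supplemented L15 medium before 5 ug of total RNA was labelled for the Affymetrix Rat Genome 230 2.0 array. Age, promoter and copy number of the transgene are not given in the labels, and whether each array stands for its own animal or culture is likewise not stated. P-values hence reflect sample-to-sample spread that may be purely technical. Each group has a sample A, B and C, and what the letters stand for is not stated. Values are MAS5 signals, linear and scaled to one trimmed mean per array; a level of one probe set cannot be set against that of another. Of the 14 astrocyte markers on the array 13 were above the filter level, all but Gjb6. The summed signal of the 14 was 116941 to 129374 in NonTG and 110570 to 127576 in hSOD1G93A. Of 19 microglia and macrophage markers 4 (Tmem119, Laptm5, Fcer1g and Lyz2) were above the filter level. So were 11 of 12 fibroblast and meningeal markers, 6 of 9 of pericytes and smooth muscle and 3 of 9 of endothelium. Of oligodendrocyte lineage markers 5 of 8 were above it, and of neuron markers 6 of 7. The oligodendrocyte lineage sum was 5051 to 5583 in NonTG and 5520 to 7416 in hSOD1G93A, highest on hSOD1G93A array B.

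Reactive astrocytes are astrocytes that have responded to injury, infection or disease. Lcn2, Steap4, Cp and Serpina3n belong to the genes induced in most such states. Gbp2 and Srgn are counted with a neuroinflammatory response, often called A1, which interleukin 1, tumour necrosis factor and complement from microglia can induce. Cd14, Emp1 and Tgm2 are counted with a response to ischaemia, often called A2. Signalling through NF-kB, through Stat3 and through C/EBP factors is known to drive several of these genes. Lcn2, Steap4 and Cp are also tied to iron: lipocalin 2 binds iron-carrying siderophores, Steap4 is a metalloreductase of membranes and ceruloplasmin oxidises iron at the cell surface.

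The promoters of Lcn2, Steap4 and Cp are shown because the signals of these 3 genes went together over the arrays. Each sequence holds the 250 bases before the RefSeq transcription start in the GRCr8 build, 5′ to 3′ on the gene's strand: Lcn2 at chr3:36081781-36082030 on the minus strand, Steap4 at chr4:27054770-27055019 on the minus strand and Cp at chr2:104368420-104368669 on the plus strand. Capitals, found in Steap4 only, mark matches to the motifs searched.
Lcn2: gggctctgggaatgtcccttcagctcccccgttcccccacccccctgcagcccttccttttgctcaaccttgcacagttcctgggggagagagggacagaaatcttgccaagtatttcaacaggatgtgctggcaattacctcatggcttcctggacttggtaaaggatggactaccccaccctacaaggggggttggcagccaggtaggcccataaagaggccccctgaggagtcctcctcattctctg
Steap4: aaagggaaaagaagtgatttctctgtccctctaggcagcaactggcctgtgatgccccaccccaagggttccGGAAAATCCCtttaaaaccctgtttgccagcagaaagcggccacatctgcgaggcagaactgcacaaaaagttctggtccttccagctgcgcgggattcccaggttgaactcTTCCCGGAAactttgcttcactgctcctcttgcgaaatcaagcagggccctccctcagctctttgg
Cp: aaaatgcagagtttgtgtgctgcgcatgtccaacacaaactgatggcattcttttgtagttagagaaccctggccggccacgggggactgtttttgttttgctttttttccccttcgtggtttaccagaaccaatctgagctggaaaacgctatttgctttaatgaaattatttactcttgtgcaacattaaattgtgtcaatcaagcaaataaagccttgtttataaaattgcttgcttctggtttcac
The motifs, searched on both strands, were GGGNN followed at once by TTTCC for NF-kB, its special case GGGAC followed by TTTCC, TTCNNNGAA for STAT factors, TTGCNNCAA for C/EBP and TGANTCA for AP-1. RefSeq windows were at hand for 9 of the 10 genes, Tgm2 being the other. Steap4 held 1 match to the wider NF-kB motif searched, read on the opposite strand, and 1 TTCNNNGAA match. That NF-kB motif was found in 1.3% of 33469 rat promoter windows. TTCNNNGAA, found in 7.67% of windows, also stood in Serpina3n and Emp1. TGANTCA, found in 6.34% of windows, stood in Gbp2 and Emp1, and TTGCNNCAA, found in 1.75%, in none of the 9. The special NF-kB case, found in 0.0956% of windows, stood in none of the 9, and Lcn2 and Cp held no match to any motif searched. Other forms of the sites, such as NF-kB motifs that do not end in TTTCC, were not searched. No match says only that these letters are not in the window, and a match is no evidence of binding.

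Lcn2, the secreted lipocalin that astrocytes release in inflammation, differed far more between letters than between genotypes. Its signals (1387011_at) on the NonTG arrays A, B and C were 1186, 6413 and 2603, and on the hSOD1G93A arrays 962, 3999 and 2508. In both genotypes B was highest and A lowest, 5.41-fold apart in NonTG and 4.16-fold in hSOD1G93A, and the genotypes overlapped widely. Averaged over genotypes, the letters spanned 2.25 on the log2 scale, which placed Lcn2 at the 99.9th percentile of the 18625 probe sets tested. The genotype difference, hSOD1G93A minus NonTG, was -0.35 (SE 0.62, 95% interval -1.73 to 1.04, n = 3 per group). Within the letters hSOD1G93A was 0.812, 0.624 and 0.963 times NonTG for A, B and C, so each pair pointed the same way. With the letter as a block the same difference had an SE of 0.11 and an interval of -0.59 to -0.10. It did not pass over all tested probe sets (adjusted p = 0.83 by limma). Lcn2 was chosen with these values known, so the interval is a description and no test. The summed signal of 18 microglia and macrophage markers (without Tmem119) had the same order of letters as Lcn2. It was 594, 926 and 813 in NonTG and 688, 957 and 805 in hSOD1G93A. Of these markers Laptm5, Fcer1g and Lyz2 alone passed the filter on dim signals. With Tmem119, itself highest at A and lowest at B in both genotypes, this order was lost. The sums were then 1140, 1160 and 1255 in NonTG and 1331, 1137 and 1182 in hSOD1G93A. The part of these cells in the Lcn2 signals was not tested.

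Steap4, the metalloreductase, had the same order of letters. Its NonTG signals (1385397_at) were 93.6, 579.8 and 173.6, and its hSOD1G93A signals 99.6, 264.7 and 174.0. B was again highest and A lowest in both genotypes, with a letter range of 2.02. The genotype difference of -0.35 (SE 0.60, or 0.25 with the letter as a block) lay in B. Within A, B and C hSOD1G93A was 1.06, 0.457 and 1.00 times NonTG.

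Cp, ceruloplasmin, was read by 3 probe sets that shared this order. On the brightest (1368418_a_at) the NonTG signals were 6632, 13913 and 8780.5 and the hSOD1G93A signals 6445, 10829 and 8975. The letter ranges of the 3 were 0.91, 0.60 and 0.75, and their genotype differences -0.12 (SE 0.26), -0.11 (SE 0.19) and -0.26 (SE 0.22). All 3 probe sets overlapped between genotypes. With the letter as a block the SEs were 0.077, 0.098 and 0.093. The interval of the last (1368420_at) was then -0.46 to -0.046, a description and no test. It did not pass over all tested probe sets (adjusted p = 0.83 by limma). Over the 6 arrays the log2 signals of Lcn2 and Cp correlated with Pearson's r = 0.99 (Spearman's rho = 0.94), those of Steap4 and Cp with r = 0.99 (rho = 0.94) and those of Lcn2 and Steap4 with r = 0.97 (rho = 0.89). These are descriptions of 6 arrays that share scaling and labelling; with each genotype's mean removed they were 0.99, 0.99 and 0.97.

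**Figure D1:**
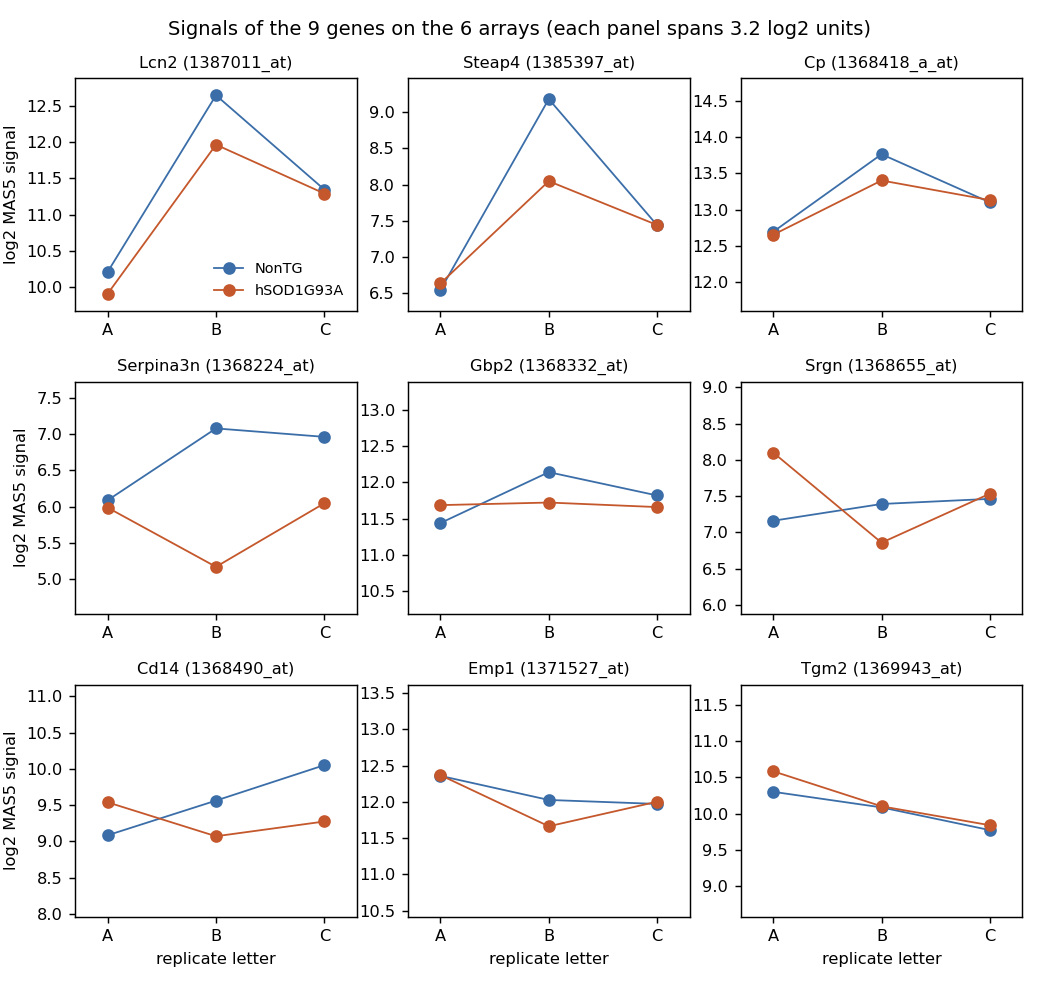
Log2 MAS5 signal (y axis) of the 9 genes by replicate letter (x axis) in NonTG (blue) and hSOD1G93A (orange), 1 array per point, the brightest probe set per gene; lines join arrays of one genotype and every panel spans the same number of log2 units. Lcn2, Steap4 and Cp peak at B in both genotypes, while the Serpina3n lines part at B and C.

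Serpina3n, a secreted serine protease inhibitor, was the one gene whose genotypes did not overlap. Its NonTG signals (1368224_at) were 68.1, 135.3 and 124.8 against 63.5, 36.1 and 66.2 in hSOD1G93A. The gap was narrow at A, where hSOD1G93A was 0.932 times NonTG, and wide at B and C, at 0.267 and 0.53 times. The difference was -0.97 (SE 0.38, 95% interval -1.84 to -0.11). All 3 hSOD1G93A signals lay under 66.7, where the dim filter stands, and at such signals the size of a difference is poorly known. Of the 13 probe sets this was the only one with hSOD1G93A wholly below NonTG, where 3.51% of all tested probe sets were. Fibroblast and meningeal markers also had their lowest summed signal on the hSOD1G93A array B, 54466 against 67075 to 77081 on the other arrays (12 markers, 11 above the filter level). In that list 4 markers were lowest on this array (Col1a1, Col3a1, Fn1 and Postn), whereas Dcn, at 283 there, and Aldh1a2, at 474, were above their NonTG signals of 59.1 to 92.3 and 152 to 282. The summed signal was lowest on the same array also for pericyte and smooth muscle markers, 13749 against 17905 to 21102 (9 markers, 6 above the filter level), of which 6 were lowest there. Their part in the Serpina3n values was not tested, and in cultures read as a whole fewer cells of a type and less RNA per cell cannot be told apart.

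The pair counted with the A1 response differed from each other. Gbp2, an interferon-induced guanylate-binding protein (1368332_at), had NonTG signals of 2779, 4519.7 and 3617 and hSOD1G93A signals of 3299, 3381 and 3238. The NonTG arrays spread 1.63-fold with B on top, whereas the hSOD1G93A arrays lay within 1.04-fold of each other, inside the NonTG range. Srgn, the proteoglycan core protein serglycin of secretory granules (1368655_at), had NonTG signals of 143.0, 167.8 and 176.2 and hSOD1G93A signals of 274.4, 115.9 and 185.3. Its hSOD1G93A array A was the highest of the 6 and array B the lowest, so the genotype difference of 0.16 (SE 0.30) summed opposite pairs, 1.92 times NonTG at A and 0.691 times at B. Srgn is also a gene of blood cells. The summed microglia and macrophage markers were 1331 on hSOD1G93A array A and 1137 on array B, with 1140 to 1255 in NonTG, but this order came from Tmem119: the sum of the other 18 was 688 on array A and 957 on array B. Ptprc and Itgam, which define such cells, were under the filter level on all 6 arrays, and the part of these cells in the Srgn values was not tested.

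Among the genes counted with the A2 response, Cd14, the co-receptor for bacterial lipopolysaccharide (1368490_at), showed no common letter order. Its NonTG signals were 542.8, 755.9 and 1061 and its hSOD1G93A signals 743.7, 537.6 and 619.1. C was highest in NonTG and A in hSOD1G93A, and the groups overlapped, with a difference of -0.27 (SE 0.23). Emp1, an epithelial membrane protein with 4 membrane spans that is induced in injury, was highest at A in both genotypes on both probe sets. On 1371527_at the NonTG signals were 5249.7, 4170.1 and 4015 and the hSOD1G93A signals 5287, 3243 and 4101. On 1369736_at they were 1796, 1258 and 1494 against 1594, 1272 and 1391. The genotype differences were -0.11 (SE 0.17) and -0.09 (SE 0.14). Tgm2, the tissue transglutaminase that cross-links proteins, was also highest at A. On 1369943_at its NonTG signals were 1263, 1088 and 876 and its hSOD1G93A signals 1537, 1099.6 and 918. On 1387776_at they were 432.4, 279.6 and 326.8 against 540.4, 286.5 and 370.3. Both Tgm2 probe sets were higher in hSOD1G93A within all 3 letters, by 0.12 (SE 0.19) and 0.18 (SE 0.24) on average, with the groups overlapping. The order of Emp1 and Tgm2 was thus unlike that of Lcn2, with r = -0.77 for Lcn2 and Emp1 (rho = -0.66) and r = -0.59 for Lcn2 and Tgm2 (rho = -0.54) over the 6 arrays.

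Taken by letter, the 13 probe sets fell into those with B highest in both genotypes (Lcn2, Steap4, the 3 of Cp, and Gbp2), those with A highest in both (the 2 of Emp1 and the 2 of Tgm2), and Serpina3n, Srgn and Cd14, whose highest letter differed between genotypes. Of all tested probe sets, 16.2% had B highest in both genotypes and 15.7% A. The full order B, C, A held in both genotypes for 5 of the 13, and for 6.07% of all. The mean square for letter was larger than that for genotype for 11 of 13, the exceptions being Serpina3n and Cd14, where 67.3% of all tested probe sets had it larger. The median letter range was 0.60 over the 13 and 0.26 over all tested. Limma's F test of the letters had adjusted p-values under 0.05 for 4 of the 13 (Lcn2, Steap4 and 2 of Cp) and for 1.05% of all (195). The test used an intensity trend in its estimate of the spread, and without that trend 0 of 18625 passed, with 2271 at an unadjusted p under 0.05. Of the 13, 2 passed after quantile normalization, 2 with no filter, 3 with the filter at the 60th percentile, 0 with no trend and 5 to 8 when 1 array was left out. Since the genes were chosen with these values known, nothing is read from the counts.

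**Figure D2:**
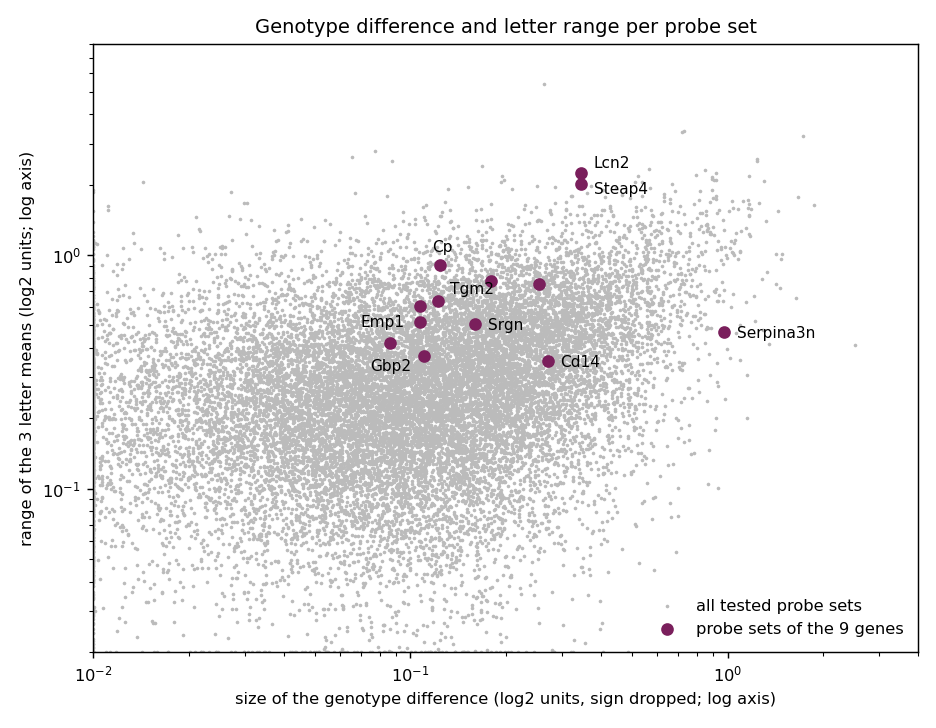
Range of the 3 letter means (y axis) against the size of the genotype difference (x axis) for the 18625 tested probe sets (grey) and the 13 of the 9 genes (purple, the brightest of each gene named), both in log2 units on log axes; smaller values are drawn on the axis. Lcn2 and Steap4 lie near the top of the cloud at a genotype difference of 0.35, and Serpina3n lies far to the right with a letter range of 0.47.

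By genotype, 10 of the 13 probe sets were lower in hSOD1G93A and 3 higher, with a median difference of -0.11 against 0.0070 over all tested, of which 8946 were lower and 9679 higher. Limma called none of the 13 and none of the 18625 (0%, with 474 at an unadjusted p under 0.05, 1 of them, Serpina3n, among the 13). With the letter as a block none passed either, with 1090 and 3 at an unadjusted p under 0.05. The direction of the 13 rested on letter B, within which 10 were lower (median -0.42). Within A and C 6 of 13 each were lower (medians 0.010 and 0.0033). Of all 18625 tested, 9064 were lower within B (48.7%), 9311 within A and 9021 within C (48.4%). Lcn2, Serpina3n and 1 Cp probe set (1368420_at) were lower within all 3 letters, where 12.2% of all tested were, and both of Tgm2 were higher within all 3, where 13.5% were. Without the NonTG array B only 4 of 13 were lower, and the differences were 0.28 for Lcn2, 0.38 for Steap4 and 0.17 for Cp (1368418_a_at), but -0.79 for Serpina3n. Without the hSOD1G93A array A that of Lcn2 was 0.23.

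**Figure D3:**
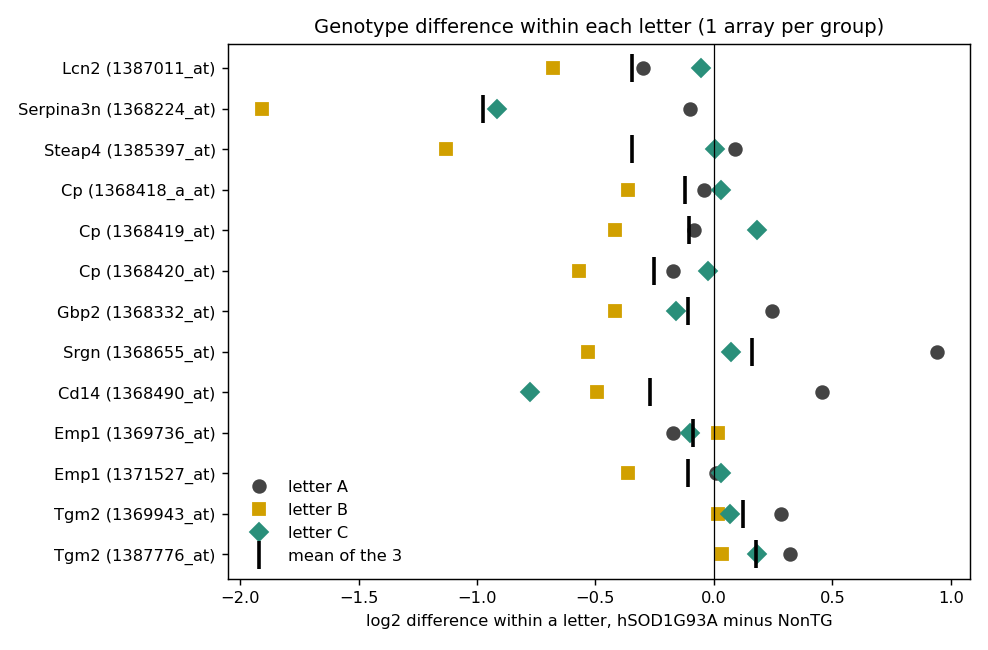
Log2 difference between the hSOD1G93A and the NonTG array of one letter (x axis) for each of the 13 probe sets (y axis), with letters A (grey circles), B (yellow squares) and C (green diamonds) and the mean of the 3 (black bars). The squares of B lie below 0 for 10 probe sets, down to -1.91 for Serpina3n, while those of A and C scatter on both sides.

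The other genes of the 3 reactive groups were not used to choose the 9, but their lists too were chosen with earlier results of these data known. Of 29 such genes 23 were on the array and 20 were tested, each by its brightest probe set. In the genotype comparison 14 of the 20 were lower in hSOD1G93A and 6 higher, with a median difference of -0.039, and limma called 0 (smallest adjusted p = 0.9997), with 2 at an unadjusted p under 0.05. Those were Sphk1, a sphingosine kinase (-0.76, SE 0.24), and Cd44, a hyaluronan receptor (-0.27, SE 0.11), whose groups overlapped. Sphk1 had NonTG signals of 191.0, 213.1 and 262.7 wholly above the hSOD1G93A signals of 173.2, 119.8 and 106.9. It was the only 1 of the 20 without overlap, where 3.51% of all tested probe sets had hSOD1G93A wholly lower. Gfap and Vim, the intermediate filaments of astrocytes, differed by -0.12 (SE 0.070) and -0.10 (SE 0.070).

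In the test of the letters 2 of these 20 passed, where 1.05% of all tested probe sets did, and 11 had an unadjusted p under 0.05, against 2897 of 18625. One was C3, the central complement component and a much used marker of the A1 response (1368000_at). Its NonTG signals were 903, 4324 and 1807 and its hSOD1G93A signals 679, 2052 and 1551, in the order B, C, A in both genotypes (letter range 1.93, adjusted p = 0.00363 by limma's F test). The other was Serping1, the inhibitor of complement C1 (1372254_at), at 669.7, 1432 and 952 against 797, 1592 and 1310.2 (letter range 1.05, adjusted p = 0.0112 by limma's F test). Both calls were lost without the intensity trend, where 0 of 20 passed and 6 had an unadjusted p under 0.05. Cxcl10, an interferon-induced chemokine, also stood in the order B, C, A in both genotypes, with a letter range of 1.23, but did not pass (adjusted p = 0.0717 by limma's F test). RT1-S3, a class I histocompatibility gene, with a range of 0.99, did not pass either (adjusted p = 0.0793 by limma's F test). Where 16.2% of all tested probe sets had B highest in both genotypes, 10 of the 20 did. By group these were 5 of the 7 induced in most states, 5 of the 8 of the A1 response and 0 of the 5 of the A2 response. The small heat shock protein Hspb1 was highest at C in both genotypes, with a range of 0.24. The differences of the complement genes between genotypes were -0.57 (SE 0.54) for C3 and 0.29 (SE 0.30) for Serping1.

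**Figure D4:**
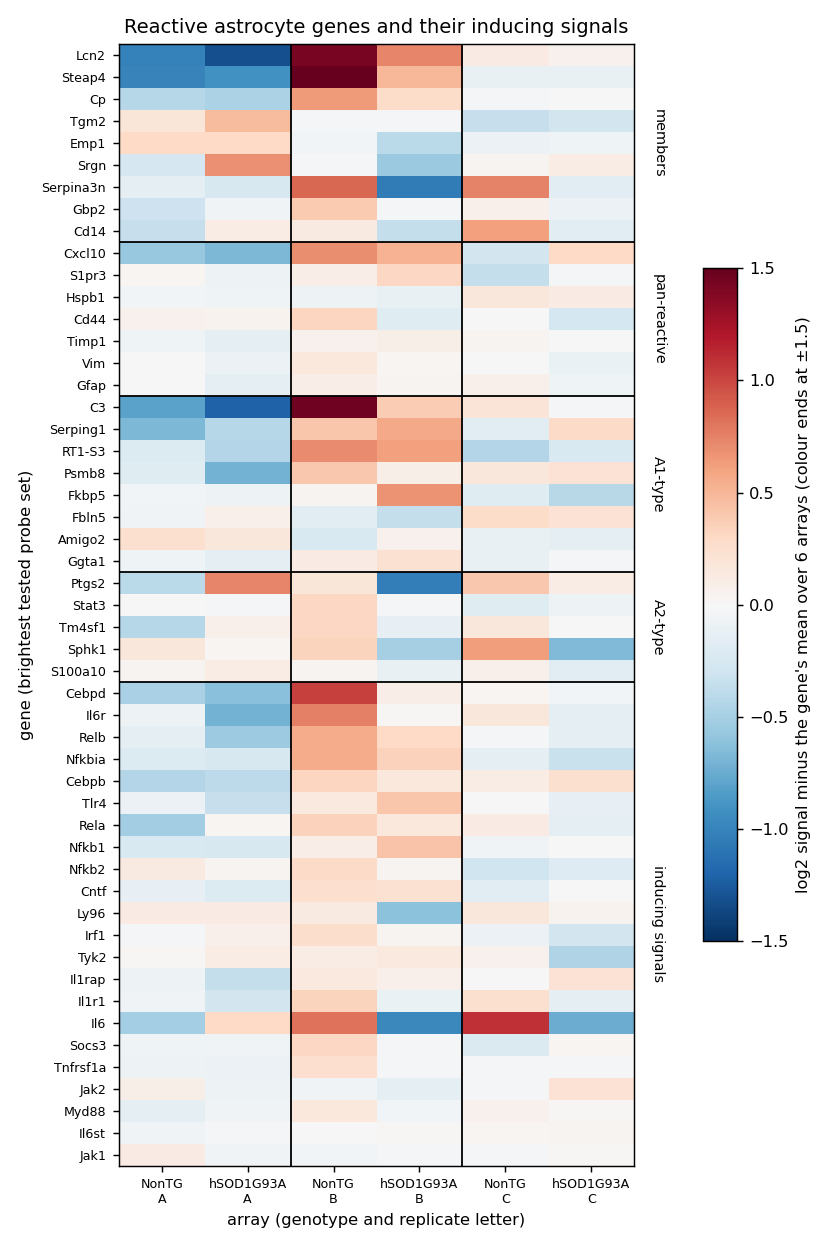
Log2 signal minus the gene's mean over the 6 arrays (colour) for the 9 genes, the 20 other tested genes of the reactive groups and the 22 inducing signals (y axis, sorted within a block by letter range) on the 6 arrays ordered by letter (x axis). Lcn2, Steap4, Cp, C3 and Cxcl10 are low on both A arrays and high on both B arrays.

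Signals that induce these genes were measured from a list of 32, of which 31 were on the array and 22 tested. By genotype 17 were lower in hSOD1G93A and 5 higher (median -0.065). Limma called 0, and where 474 of all 18625 had an unadjusted p under 0.05, 1 of the 22 did. That was Il1r1, the receptor of interleukin 1 (1392946_at, -0.34, SE 0.11), with NonTG signals of 1964, 2565 and 2401 wholly above the hSOD1G93A signals of 1682, 1903 and 1852. With Ly96 (-0.29, SE 0.19), 2 of the 22 had hSOD1G93A wholly below NonTG, where 3.51% of all tested probe sets did. Il6, the cytokine interleukin 6 (1369191_at), had NonTG signals of 136, 339 and 412 and hSOD1G93A signals of 239, 99.3 and 116, with overlap (-0.93, SE 0.44). Stat3, the transcription factor downstream of it, differed by -0.079 (SE 0.12), and Socs3, its feedback inhibitor, by -0.023 (SE 0.17). In the test of the letters 1 of the 22 passed, where 1.05% of all tested probe sets did. It was Nfkbia, the NF-kB inhibitor that NF-kB itself induces (1389538_at). Its NonTG signals were 923, 1568 and 963 and its hSOD1G93A signals 902, 1352 and 846, with B highest in both (letter range 0.69, adjusted p = 0.0304 by limma's F test). Like every letter call, that of Nfkbia was lost without the intensity trend. Cebpd, a C/EBP factor of the acute phase response (1387343_at), had a larger range of 1.12 in the order B, C, A in both genotypes but missed the threshold (adjusted p = 0.0509 by limma's F test). Its signals were 1045, 2982 and 1487 in NonTG and 944, 1567 and 1418 in hSOD1G93A. B was highest in both genotypes for 11 of the 22 and A lowest in both for 11. Of all tested probe sets 16.2% had B highest in both, and 3249 of 18625 had A lowest in both.

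Of 15 receptors of lipocalin 2 and genes of iron handling, 12 were on the array and tested. The order B, C, A of Lcn2, Steap4 and Cp held in both genotypes for 1 of them, Steap1, and for 6.07% of all tested. By genotype 8 were higher and 4 lower (median 0.057). Limma called 0, with 2 at an unadjusted p under 0.05, against 474 of all 18625. In the test of the letters it also called 0, with 3 at an unadjusted p under 0.05, against 2897 of 18625. Slc22a17, a receptor of lipocalin 2, differed by 0.20 (SE 0.16) between genotypes, with a letter range of 0.40. Of the other Steap genes, Steap2 was higher on all hSOD1G93A arrays (0.32, SE 0.12), Steap3 lower on all (-0.85, SE 0.31) and Steap1 overlapped (0.088, SE 0.16). Of all 18625 tested probe sets 745 were likewise wholly higher and 653 wholly lower. The hSOD1G93A signals of Steap3, 53.3, 70.1 and 75.1, lay near the filter level. The letter range of these 3 genes was 0.21 to 0.65. Hmox1, the heme oxygenase, had a range of 0.72 with B lowest in both genotypes.

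The genes whose log2 signals over the 6 arrays were most like those of Lcn2, by Pearson's r among 10464 other genes, were Mal2, a membrane trafficking protein (0.99), RT1-M3-1, a class I histocompatibility gene (0.99), Mt2A, a metallothionein that binds zinc and copper (0.99), Stat5b, a transcription factor of cytokine signalling (0.99), and Cib1, a calcium-binding protein (0.99). Mt2A had the widest range of these 5, with NonTG signals of 4404, 9999.9 and 6317 and hSOD1G93A signals of 4067, 9183 and 6516. With 6 arrays 222 genes (2.12%) had an r above 0.9, so the names are the top of a long list. Most like Serpina3n were Bclaf3 (0.99), Grem1, a secreted inhibitor of bone morphogenetic proteins (0.98), Gas2, an actin-binding protein (0.98), Prpf6, a splicing factor (0.98), and Ccdc80, a matrix protein (0.98). Grem1 had NonTG signals of 156, 219.9 and 214.0 and hSOD1G93A signals of 140.5, 84.2 and 139.7, lowest on hSOD1G93A array B like Serpina3n.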

How the data were processed

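RNA of 6 astrocyte samples, 3 NonTG and 3 hSOD1G93A by their titles, was measured on 1 array each. The deposited values are linear intensity values that, per the submitters' processing notes, the authors made with MAS5 (GCOS 1.4). GC-RMA and log values are named in the design text, but the trimmed mean was 500.2 on all arrays (2% left out at each end), as MAS5 scaling gives. Log2 was taken with no pseudocount. The 57 control probe sets were left out, and 18625 of 31042 others, with a mean log2 above the 40th percentile (a signal of 66.7), were tested. Symbols came from the platform annotation. Probe sets with several symbols or none were not named, and genes read only by such probe sets were not counted as on the array.

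Limma 3.58.1 under R 4.3.3 (lmFit, eBayes with an intensity trend) compared genotypes without a block, and letters by an F test with genotype in the model, both with Benjamini-Hochberg adjustment over all tested probe sets and a threshold of 0.05. In simulated data on 18625 probe sets, changes of 1 and 2 on the log2 scale were planted, 100 of each. The genotype fit called 63 and 93 of them, with 5 false calls. For a shift of letter B the letter fit called 17 and 69 of 100. Values were drawn independently with no letter pairing and with many changes planted at once. These rates thus need not hold for the arrays measured. Precision is limited by the number of arrays: a difference had a median SE of 0.16, and permuting 3 against 3 arrays gives no p under 0.1.

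The letters pair the arrays: deviations from the group means correlated at 0.30, 0.25 and 0.20 between same-letter arrays and at -0.28 to 0.025 between others. SEs are from the fit without a block unless a block is named, and so include the spread between letters. Genes and lists were chosen with earlier results of these data known. Beyond the 9 genes, the text names, of each list's tested genes, those with the 4 smallest p-values by genotype or the 3 smallest by letter, in part, with C3, Gfap, Stat3 and Socs3. The 5 genes most like Lcn2 and Serpina3n were also named. Markers are named for cell types, and letter orders were counted after the values were seen. Promoter sequences are from RefSeq (GRCr8). Alternatives were the letter block, quantile normalization, a pseudocount of 16, no filter or the 60th percentile, no trend, the mean over a gene's probe sets and leaving out each array.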

Additional observations from a re-analysis of the deposited data

How the results depend on the processing

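Genotype calls stayed at 0 under every alternative run, over all tested probe sets (smallest adjusted p 0.15 to 0.9999 in limma) and among the 20 other reactive genes. With the letter as a block the probe sets with an unadjusted p under 0.05 numbered 1090 in place of 474, and 0 passed. Letter calls over all tested probe sets numbered 195; they were 110 with no filter, 0 with no intensity trend, and 341 to 1009 when 1 array was left out, each of the 6 raising the count by over 1.5 times. Those among the other reactive genes numbered 2, 0 with no trend, and 3 to 6 when 1 array was left out (6 without NonTG A, 5 without NonTG C, hSOD1G93A A or hSOD1G93A C). With fewer arrays 1 residual degree of freedom remains; the cause was not tested. The count of the 13 probe sets lower in hSOD1G93A was 10, and 4 to 11 when 1 array was left out, 4 being without NonTG B. The count with a larger mean square for letter than for genotype was 11, and 10 to 13. None of the 117 alternative values of the 13 genotype differences moved by more than the spread within groups. That spread includes the letters (for Lcn2 an SD of 1.22 in NonTG and 1.05 in hSOD1G93A), and the letter block leaves each difference unchanged. Signs did change: without NonTG B the differences were 0.28 for Lcn2 and 0.38 for Steap4. Of 104 letter ranges 6 moved by more, all on leaving out 1 array, for Serpina3n, Gbp2, Srgn and Cd14. Signals near the filter level limit what can be said of Serpina3n.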
